A study of Mus musculus with 15 samples.

Results

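The H3K4me2 peaks of Lgr5+ intestinal stem cells (ISC, 1 library) were compared with those of crypt progenitors (4 libraries). These 5 libraries are all the H3K4me2 libraries of crypt cells among the 15 samples of the study, of which 12 have a peak list. ISC were sorted by flow cytometry from Lgr5-eGFP-Cre mice, in which the Lgr5 gene drives green fluorescent protein. The progenitor libraries were 1 of secretory progenitors (Sec-Pro) from crypts with Rbpj deleted, 1 of Sec-Pro from mice given dibenzazepine (DBZ), and 2 of enterocyte progenitors (Ent-Pro) from crypts of Atoh1-/- mice. Rbpj is the DNA-binding partner of Notch, and DBZ is an inhibitor of Notch signalling, so both preparations enrich secretory cells. Mice without Atoh1 lack secretory cells. All mice were C57BL/6, and all 5 libraries were made with the same H3K4me2 antibody. No sort is given for the progenitors, whose crypts can hold stem cells too, and the share of such cells is unknown. Stage therefore cannot be told apart from genotype, treatment or the way the cells were isolated. Nothing says whether the 2 Ent-Pro libraries came from separate animals.

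Lgr5+ stem cells sit at the base of the intestinal crypt, divide continually and renew the epithelium. Their daughters become secretory or absorptive progenitors before they leave the crypt, and Notch signalling between neighbouring cells decides between these fates. ATOH1 is the transcription factor that secretory cells require. H3K4me2 marks promoters and enhancers, whether active or poised. H3K27ac marks the active ones, and DNase I hypersensitive sites (DHS) mark open chromatin. The comparison asks how much of the regulatory landscape of the progenitors is already marked in stem cells. H3K27ac and DHS were mapped in 1 Sec-Pro and 1 Ent-Pro library each and ATOH1 in 1 Sec-Pro library, with no such library of ISC, so these marks describe the progenitors at a region and not the stem cells.

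The ISC list held 68407 H3K4me2 peaks that covered 33.4 Mb. The progenitor lists held 63293 peaks in Sec-Pro with Rbpj deleted, 92279 in Sec-Pro after DBZ, 85881 in Ent-Pro replicate 1 and 64138 in Ent-Pro replicate 2, and covered between 57.0 and 75.0 Mb. ISC peaks were narrower, with a median width of 341 bp and a maximum of 5043 bp, against medians of 500 to 621 bp and maxima of 24105 to 36011 bp in the progenitor lists. Each peak carries a score of the authors, which the files do not name. It reached 37.7 in ISC, against 218 to 286 in the progenitors. It was used only to rank peaks within a list. Read numbers are not known, and the absence of a peak from a list does not show that the mark is absent. The minimum width of a peak was 146 bp in ISC, DBZ Sec-Pro and Ent-Pro replicate 1, and 200 bp in Rbpj-deleted Sec-Pro and Ent-Pro replicate 2, so each progenitor has 1 list of either kind. Positions are in mm9. The only gene table available is of a different build, so no region was tied to a gene, exon or promoter. For the same reason, peaks at stem cell marker genes such as Lgr5 were not looked up, and the label of the ISC library was not checked against them.

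Stem cell peaks were mostly found again in progenitors, while many progenitor peaks had no stem cell peak. A peak counted as absent when no peak of the other list overlapped it by at least 1 bp. Of the 68407 ISC peaks, 9663 (14.1%) were absent from Rbpj-deleted Sec-Pro and 2798 (4.09%) from DBZ Sec-Pro. From Ent-Pro replicate 1, 3386 (4.95%) were absent, and from Ent-Pro replicate 2, 9178 (13.4%). The lists that lacked more ISC peaks were the shorter ones, which are also those with a minimum width of 200 bp. In the other direction, 22596 peaks (35.7%) of Rbpj-deleted Sec-Pro and 47983 (52%) of DBZ Sec-Pro were absent from ISC. For Ent-Pro replicate 1 the number was 43182 (50.3%), and for Ent-Pro replicate 2 it was 23370 (36.4%). The ranges of the 2 directions did not overlap.

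With each list reduced to its 63293 highest-scoring peaks, the length of the shortest list, the asymmetry remained. The share of ISC peaks absent was then 12.6% in Rbpj-deleted Sec-Pro, 6.68% in DBZ Sec-Pro, 7.07% in Ent-Pro replicate 1 and 12.1% in Ent-Pro replicate 2. The lists with a minimum width of 200 bp thus still lacked more ISC peaks at the same number of peaks. The share of progenitor peaks absent from ISC was 38.1%, 37.4%, 39.2% and 38.4% in the same order of lists. At this length the 4 progenitor lists thus lay within 2 percentage points of each other. Between 2 progenitor lists, 10.4 to 20.2% of peaks were absent from the other over 12 ordered pairs. The range for ISC peaks thus overlapped that for pairs of progenitors, and the range for progenitor peaks absent from ISC lay above both.

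The asymmetry was smallest among the strongest peaks. Of the 10000 highest-scoring ISC peaks, 32.6 to 37.5% were absent from the 10000 highest of a progenitor list, against 39.7 to 43.4% of the progenitor peaks absent from ISC. With 30000 peaks per list the shares were 8.22 to 11.3% of ISC peaks, against 27.9 to 29.8% of progenitor peaks. When each list instead held the same covered length, that of the ISC list, the asymmetry turned round. Of ISC peaks, 50.4% were then absent from Rbpj-deleted Sec-Pro, 54.3% from DBZ Sec-Pro, 55.3% from Ent-Pro replicate 1 and 49.1% from Ent-Pro replicate 2. The progenitor peaks absent from ISC came to 1.39% in Rbpj-deleted Sec-Pro, 0.499% in DBZ Sec-Pro, 0.357% in Ent-Pro replicate 1 and 1.7% in Ent-Pro replicate 2. That length left 15961 to 20334 wide peaks per progenitor list beside the 68407 narrow ISC peaks. How many peaks each side has to itself thus depends on whether lists are matched by number or by covered length.

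**Figure D1:**
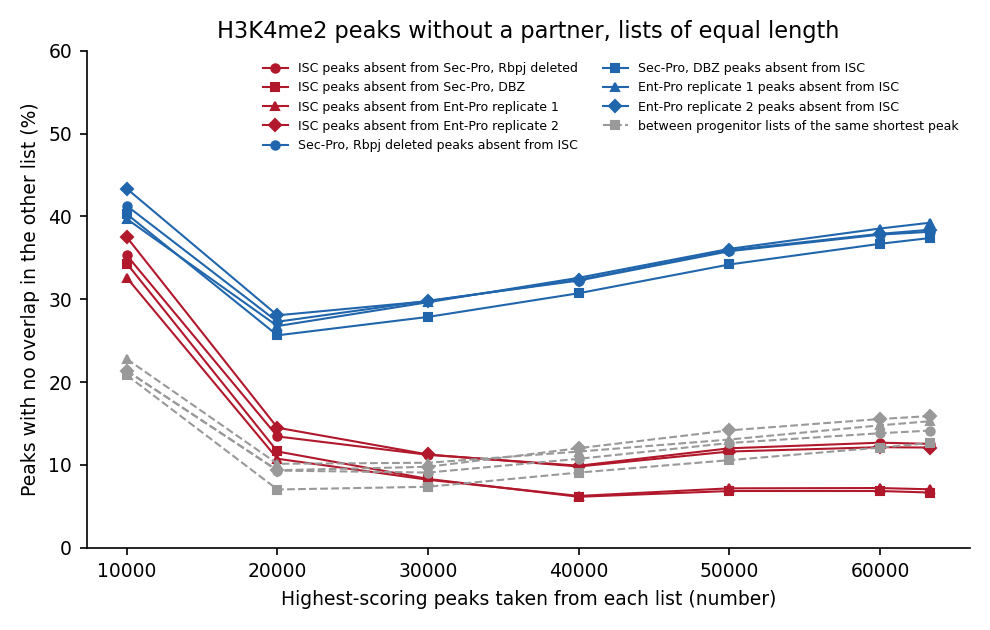
The horizontal axis gives the number of highest-scoring peaks taken from each list, and the vertical axis the percentage of peaks that no peak of the other list overlaps. Red lines are ISC peaks absent from each progenitor list, blue lines are progenitor peaks absent from ISC, and dashed grey lines are pairs of progenitor lists with the same shortest peak. At 30000 peaks the red lines lie at 8.22 to 11.3% and the blue lines at 27.9 to 29.8%.

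Regions specific to one side in all lists were then defined. ISC-only peaks, which no progenitor list overlaps, numbered 1609 of 68407 (2.35%). Progenitor-only regions, merged regions with a peak in all 4 progenitor lists and none in ISC, numbered 8436 of the 42472 regions found in all 4 lists (19.9%). The 2 definitions are unequal. An ISC-only peak has to be missed by 4 lists, while a progenitor-only region has to be found in 4 and missed by 1. The part of this in the contrasts of count, score, width and gap between the classes was not tested. At equal length the counts were 2228 ISC-only peaks (3.52% of 63293) and 7405 progenitor-only regions (18.6% of 39859). At equal covered length they were 28192 ISC-only peaks (41.2%) and 16 progenitor-only regions (0.118% of 13536). Without the DBZ Sec-Pro list, the longest, ISC-only peaks numbered 2809. Among the 92423 regions of the union of all 5 lists, 33854 (36.6%) carried a peak in every list. The next largest patterns were 13367 regions marked in DBZ Sec-Pro alone, 9005 in Ent-Pro replicate 1 alone, and the 8436 progenitor-only regions. Regions private to Rbpj-deleted Sec-Pro (1369) and to Ent-Pro replicate 2 (1368) were about as many as the 1609 private to ISC.

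ISC-only peaks were the weak and narrow end of the stem cell list. With the ISC list divided by score into 10 bins of equal size, the highest 2 bins held 0 ISC-only peaks, the third held 2, and the lowest held 490 (7.16% of that bin). Their median score was 4.18 and their median width 177 bp, against 8.04 and 412 bp for the 55972 ISC peaks (81.8%) that all 4 progenitor lists share. ISC peaks found in 1, 2 or 3 progenitor lists lay between, with median widths of 189, 203 and 212 bp. The widest ISC-only peak, at chr12:81148462-81149141, measured 680 bp and had a score of 5.07. The widest progenitor-only region, at chr11:78944622-78949702, measured 5081 bp, and the median over that class was 764 bp. Regions without an ISC peak in just 1 progenitor list had a median width of 203 bp.

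**Figure D2:**
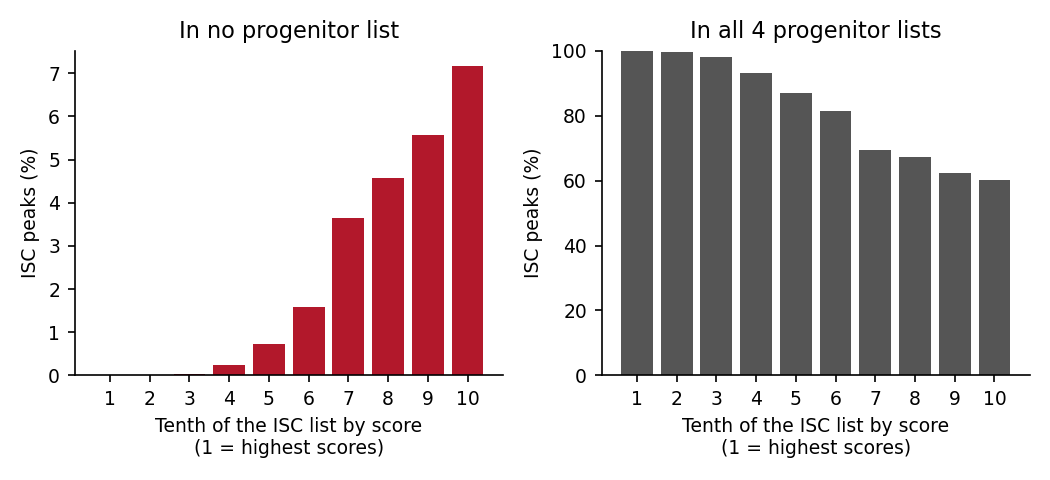
ISC peaks are divided by score into 10 bins of equal size on the horizontal axis, the highest first, and bars give the percentage of each bin found in no progenitor list (left) and in all 4 (right). The left bars grow from 0 in the highest bin to 7.16% in the lowest, and the right bars drop from 99.9 to 60.2%. The vertical scales differ.

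Most ISC-only peaks lay beside a progenitor peak, and most progenitor-only regions lay away from ISC peaks. The median gap was 296 bp between an ISC-only peak and the nearest progenitor peak, and 4496 bp between a progenitor-only region and the nearest ISC peak. Within 1 kb of the other side lay 1107 of 1609 ISC-only peaks (68.8%), against 2072 of 8436 progenitor-only regions (24.6%). More than 10 kb away lay 161 of 1609 ISC-only peaks and 2726 of 8436 progenitor-only regions. Progenitor lists cover more of the genome than the ISC list, and the part of this in the gaps was not tested. Counting only regions more than 1 kb from the other side left 502 ISC-only peaks and 6364 progenitor-only regions.

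**Figure D3:**
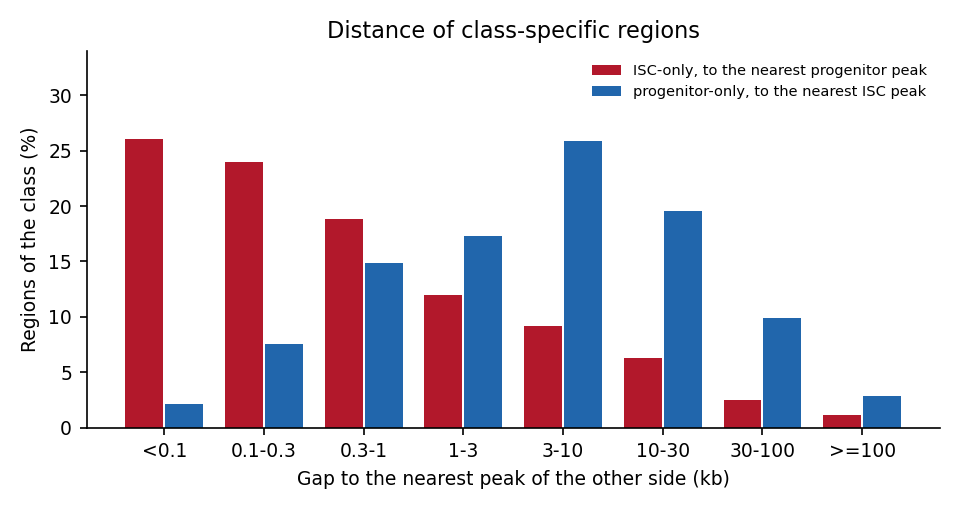
Bars give the percentage of ISC-only peaks (red) and progenitor-only regions (blue) in each range of the gap to the nearest peak of the other side, in kb. ISC-only peaks are most frequent below 0.1 kb (26.0%) and progenitor-only regions between 3 and 10 kb (25.9%).

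The ISC-only peaks with the highest scores show how modest this class is. The first, at chr1:64239532-64239726, had a score of 11.3, above 76.0% of the ISC list. A progenitor peak ended 25 bp away, and H3K27ac peaks of both Sec-Pro and Ent-Pro overlapped it. The second, at chr10:44635589-44635737, had a score of 11.0 and no peak in any of the other 11 lists, with the nearest progenitor peak 50645 bp away. It is the strongest stem cell peak of the class that stands alone. The third, at chr4:55465385-55465632, scored 9.91 and lay 2210 bp from a progenitor peak. The fourth, at chr7:120205287-120205491, scored 9.54 and lay 249 bp away. Neither had a peak in another list. The next 6 were drawn by position from 10 peaks tied at a score of 8.91. One of these, at chr2:32723221-32723424, carried an ATOH1 peak of Sec-Pro and an H3K4me2 peak of goblet cells. Of the 10 named ISC-only peaks, 5 had no peak in any other list, 3 had H3K27ac in a progenitor, 0 had a DHS and 1 had ATOH1.

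The strongest progenitor-only regions were ranked by the lowest of their 4 score percentiles, since scores rank peaks only within a list. That value was 84.1 for the first, and it is not the same measure as the percentile of a single ISC-only peak in the ISC list. The first, at chr5:116102027-116103092, lay 18775 bp from the nearest ISC peak. It scored 54.8 in Rbpj-deleted Sec-Pro, 83.6 in DBZ Sec-Pro, 103 in Ent-Pro replicate 1 and 61.1 in Ent-Pro replicate 2, above at least 84.1% of the peaks of each list. It carried H3K27ac and a DHS in both progenitors and H3K4me2 in mature goblet cells and enterocytes. The fourth, at chr13:74107948-74109081, carried an ATOH1 peak and a DHS in Ent-Pro alone, and lay 31619 bp from an ISC peak. The fifth, at chr12:85454689-85456140, had a DHS in both progenitors and no H3K27ac peak. The sixth, at chrX:91456438-91459098, was the widest of the 10 at 2661 bp. Others lay close to stem cell peaks, such as the third, at chr6:108015361-108016140, 95 bp from one. All 10 named regions carried H3K4me2 in both mature cell types, 8 had H3K27ac, 9 had a DHS and 1 had ATOH1 in a progenitor. By choice these are the strongest of their class, as are the named ISC-only peaks.

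Progenitor H3K27ac was found at 565 of 1609 ISC-only peaks, or 35.1% [32.8 to 37.5], and at 6553 of 8436 progenitor-only regions, or 77.7% [76.8 to 78.6]. Brackets give Wilson 95% intervals, which cover counting error only, since regions are not replicates. The difference was -42.6 percentage points, with a Newcombe 95% interval of -45.0 to -40.0. Open chromatin of the progenitors was also less frequent at ISC-only peaks. A DHS of either progenitor lay at 13 ISC-only peaks, 0.808% [0.473 to 1.38], and at 2045 progenitor-only regions, 24.2% [23.3 to 25.2]. The difference was -23.4 points (-24.4 to -22.4). ATOH1 of Sec-Pro lay at 40 ISC-only peaks, 2.49% [1.83 to 3.37], and at 529 progenitor-only regions, 6.27% [5.77 to 6.81], a difference of -3.78 points (-4.63 to -2.77). ISC peaks shared with all 4 progenitor lists stood above both classes, with H3K27ac at 85.1%, a DHS at 42.4% and ATOH1 at 9.37%. Progenitor-only regions have progenitor H3K4me2 in all 4 lists by definition and ISC-only peaks in none, and the 3 marks are of progenitors. Regions without an ISC peak in just 1 progenitor list had H3K27ac at 33.9%, a DHS at 5.30% and ATOH1 at 2.53%. The part of the class definition in the differences was not tested.

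At equal length the order of ISC-only peaks and progenitor-only regions was the same. H3K27ac lay at 39.9% of ISC-only peaks and 77.2% of progenitor-only regions, a DHS at 1.62% and 28.2%, and ATOH1 at 3.37% and 7.41%. The 28192 ISC-only peaks at equal covered length had H3K27ac at 69.3%, a DHS at 13.0% and ATOH1 at 5.63%. The 16 progenitor-only regions cut that way had these at 15, 12 and 2 regions. The ATOH1 difference of -6.87 points (-30.4 to 2.14) did not pass there. ISC peaks shared by all 4 lists so cut had H3K27ac at 90.5% and a DHS at 60.8%. Most of the regions with H3K27ac had it in both progenitors. Among ISC-only peaks 313 had it in both, 104 in Sec-Pro alone and 148 in Ent-Pro alone. Among progenitor-only regions 5497 had it in both, 275 in Sec-Pro alone and 781 in Ent-Pro alone. DHS in Ent-Pro alone was found at 5 ISC-only peaks (0.311%) and 594 progenitor-only regions (7.04%), and in Sec-Pro alone at 1 (0.0622%) and 62 (0.735%). With full lists, ISC peaks in all 4 progenitor lists also had more in Ent-Pro alone. Their DHS shares were 5.12% in Ent-Pro alone and 0.641% in Sec-Pro alone, and for H3K27ac 6.70 and 1.82%. A higher share in Ent-Pro alone was thus not particular to either class. The DHS list held 38595 peaks in Ent-Pro and 31980 in Sec-Pro, while the H3K27ac list held 68764 in Ent-Pro and 74483 in Sec-Pro.

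**Figure D4:**
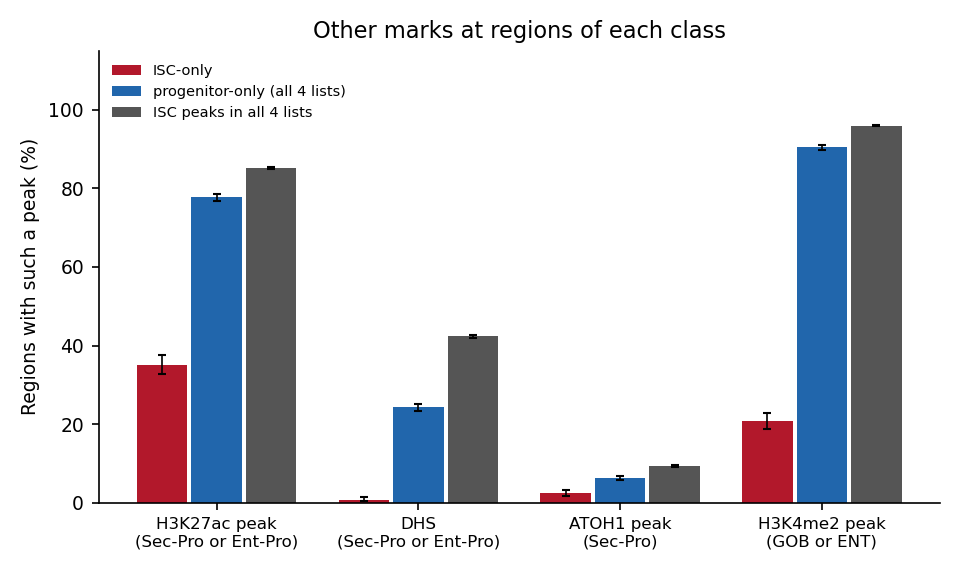
Bars give the percentage of ISC-only peaks (red), progenitor-only regions (blue) and ISC peaks in all 4 progenitor lists (grey) that overlap a peak of each kind, with Wilson 95% intervals. H3K27ac lies at 35.1% of ISC-only peaks and 77.7% of progenitor-only regions, and DHS at 0.808 and 24.2%.

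The classes differ in width, so the shares were also compared at like widths. The width of a progenitor-only region is that of merged peaks of 4 lists, and the width of an ISC-only peak that of 1 peak. Between 250 and 500 bp, H3K27ac lay at 34.3% of 210 ISC-only peaks and 72.2% of 1579 progenitor-only regions, a difference of -37.9 points (-44.4 to -30.9). A DHS lay at 0.952% and 23.8%, a difference of -22.9 points (-25.1 to -19.7). For ATOH1 the shares were 3.33% and 4.24%, and the difference of -0.910 points (-2.95 to 2.59) did not pass. Below 250 bp lay most ISC-only peaks (1395) but only 4 progenitor-only regions, too few to compare the 2 classes there. These ISC-only peaks had a DHS at 0.789%, against 22.6% of 14664 ISC peaks of that width in all 4 lists. Within the ISC list, score gave the same picture. In the lowest of 4 equal bins of the ISC list by score, ISC-only peaks had H3K27ac at 35.4% and a DHS at 0.697%, against 80.4% and 21.1% of ISC peaks in all 4 lists. Progenitor lists in their lowest bin had a DHS at 8.79% (Rbpj-deleted Sec-Pro), 5.82% (DBZ Sec-Pro), 6.03 and 8.31% (Ent-Pro replicates 1 and 2) of peaks absent from ISC. Their peaks overlapped by ISC had one at 9.48, 5.10, 4.59 and 11.4%. In the highest bin the shares were 61.8 to 72.6% of absent peaks and 81.2 to 89.6% of overlapped peaks.

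H3K27ac and DHS were more frequent at ISC peaks that more progenitor lists held. H3K27ac lay at 43.6, 54.4 and 63.5% of ISC peaks found in 1, 2 and 3 progenitor lists, and a DHS at 2.72, 6.44 and 9.65%. ATOH1 lay at 2.49% of ISC-only peaks, and at 3.32, 4.75 and 4.48% of ISC peaks in 1, 2 and 3 lists. The intervals for 2 and 3 lists, 4.12 to 5.47% and 3.94 to 5.08%, overlapped. Of ISC peaks in all 4 lists, 9.37% had ATOH1. Peaks private to a single library were few in DHS on either side, yet fewest in ISC. ISC-only peaks had a DHS at 0.808%, against 4.46% of the regions private to Rbpj-deleted Sec-Pro, 3.94% of those private to DBZ Sec-Pro, 7.54% for Ent-Pro replicate 1 and 4.68% for Ent-Pro replicate 2. The interval of the ISC value ended at 1.38, below all 4. H3K27ac gave no such order, with 35.1% of ISC-only peaks between the 22.7% of DBZ Sec-Pro and the 43.0, 52.8 and 64.3% of the other private sets. DHS and H3K27ac were mapped in progenitors, so private progenitor regions come from the same kind of cells as the mark and ISC-only peaks do not.

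H3K27ac at ISC-only peaks differed with distance. It lay at 42.3% [39.4 to 45.2] of the 1107 within 1 kb of a progenitor peak and at 19.3% [16.1 to 23.0] of the 502 farther away. For DHS the 2 shares were 0.813 and 0.797%, from 9 and 4 peaks. Progenitor-only regions more than 1 kb from an ISC peak had H3K27ac at 75.6%, a DHS at 21.1% and ATOH1 at 6.24%.

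Seen from the other marks, stem cell H3K4me2 covered fewer of the progenitors' sites than each progenitor list did. With lists of equal length, ISC peaks overlapped 5541 of 15240 ATOH1 peaks, or 36.4% [35.6 to 37.1], against 48.8 to 54.6% for the 4 progenitor lists. Of Sec-Pro DHS, 47.7% lay under ISC peaks, against 55.7 to 58.7% under progenitor peaks. Of Ent-Pro DHS, 44.4% lay under ISC peaks, against 53.5 to 56.3%. For Sec-Pro H3K27ac the values were 44.8% in ISC, against 60.5 to 64.4%, and for Ent-Pro H3K27ac 47.1%, against 62.1 to 67.4%. At equal covered length the order turned round for all of these marks, as it did for the counts. ATOH1 peaks then lay under ISC peaks at 37.7%, against 28.8 to 31.3% for the progenitor lists. With full lists, 1732 ATOH1 peaks (11.4%) lay in all 4 progenitor lists and not in ISC, and 38 (0.249%) in ISC and no progenitor list.

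Broad progenitor peaks were almost always marked in stem cells, by several narrow peaks. Of progenitor peaks of 4000 bp or more, 99.7 to 100% overlapped an ISC peak, and each held 4.36 to 4.61 ISC peaks on average. Of progenitor peaks below 500 bp, 15.8 to 33.8% did. In the 33854 regions marked in all 5 libraries, ISC peaks covered a median of 708 bp per region, against 1148 to 1379 bp in the progenitors. The same regions held 1.79 ISC peaks on average, against 1.30 to 1.37 progenitor peaks. Across these regions, which are not independent and share libraries, the Spearman correlation of best scores was 0.696 to 0.745 between ISC and a progenitor list and 0.864 to 0.916 between 2 progenitor lists. Where the mark was shared, scores in ISC followed those in progenitors less closely than the progenitor scores followed each other. The score is not named, and it took 1194 distinct values in ISC, against 3162 to 4752 in the progenitor lists. The part of this in the correlations was not tested.

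ISC peaks were found at a minority of the H3K4me2 regions that separate the progenitor lineages. Of 599 regions in both Sec-Pro lists and no Ent-Pro list, 87 had an ISC peak, or 14.5% [11.9 to 17.6]. Of 1012 regions in both Ent-Pro lists and no Sec-Pro list, 60 did, or 5.93% [4.63 to 7.56]. The Sec-Pro share exceeded the Ent-Pro share by 8.60 points (5.53 to 11.9). Within lists of a single kind the difference was smaller. It was 1.59 points (1.06 to 2.12) between DBZ Sec-Pro and Ent-Pro replicate 1, whose shortest peak is that of ISC. Between Rbpj-deleted Sec-Pro and Ent-Pro replicate 2 it was 0.248 points (-0.878 to 1.38), which did not pass. At equal length, 177 of 687 Sec-Pro regions (25.8%) and 170 of 1275 Ent-Pro regions (13.3%) had an ISC peak, a difference of 12.4 points (8.73 to 16.3). Within a kind of list it was then 4.65 points (3.64 to 5.66) for DBZ Sec-Pro and Ent-Pro replicate 1, and 0.482 points (-0.598 to 1.56) for the other pair. Regions in 2 lists that do not separate the lineages lay on both sides of these shares. With full lists an ISC peak was found at 19.4% of 10084 regions in DBZ Sec-Pro and Ent-Pro replicate 1 alone, and at 0.709% of 282 regions in Rbpj-deleted Sec-Pro and Ent-Pro replicate 2 alone. A low share was thus not particular to regions that separate the lineages. Of the 42472 regions in all 4 lists, which are wider, 34036 (80.1%) had an ISC peak. Among the 512 regions without an ISC peak in both Sec-Pro lists alone, H3K27ac of Sec-Pro lay at 35.4% and of Ent-Pro at 30.5%. Among the 952 in both Ent-Pro lists alone, H3K27ac of Sec-Pro lay at 56.4% and of Ent-Pro at 68.7%. The first by rank of these were chr6:121048203-121048915 for Sec-Pro, 8321 bp from an ISC peak, and chr5:64421599-64422103 for Ent-Pro, 47425 bp from one. The Sec-Pro region had H3K27ac of Ent-Pro and not of Sec-Pro, and H3K4me2 in goblet cells and enterocytes. The Ent-Pro region had H3K27ac of both progenitors, and H3K4me2 in enterocytes and not in goblet cells.

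Regions marked in all 4 progenitor lists lacked an ISC peak more often on the X chromosome than on autosomes. Of the regions in all 4 progenitor lists, 293 of 916 on X lacked an ISC peak, or 32.0% [29.0 to 35.1], against 18.4 to 21.6% on the 19 autosomes. The difference between X and all autosomes together was 12.4 points (9.43 to 15.5), and 13.6 points (10.6 to 16.9) at equal length. It held among regions below 1000 bp, with 58.2% on X and 43.7% on autosomes, and among wider ones, with 14.5% and 8.23%. Of the 30000 highest-scoring ISC peaks, 299 (0.997%) lay on X, against 550 to 645 (1.83 to 2.15%) in the progenitor lists. The mean over the 4 progenitor libraries was 1.98 ± 0.132% (SD, n = 4). ISC was the lowest of the 5 libraries, with a two-sided exact permutation p = 0.2, the smallest that 5 libraries allow. The ratio of the ISC share to the mean progenitor share was 0.503 on X and 0.976 to 1.06 on single autosomes. In the full lists the X share was 1.53% in ISC, against 1.97 to 2.08% in the progenitors, and the ratio was 0.757 on X and 0.968 to 1.03 on single autosomes.

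Other lists give values beside this. X peaks in ISC had a median score percentile of 41.6, against 47.8 to 53.5 in the progenitors. The lists of goblet cells (GOB) and enterocytes (ENT) of the villus had 1.99 and 2.13% of their upper 30000 peaks on X, and 1.39 and 1.69% of their full lists. In the full lists, GOB was thus below ISC, and a low X share was not particular to ISC. GOB lacked 11.0% of the X regions and 10.3% of the autosomal ones, and ENT 6.44 and 5.13%. On chromosome Y lay 6 ISC peaks, 0 in each of the 4 progenitor lists, 26 in GOB and 28 in ENT. The labels give no sex for the mice. The part of sex in the X result was not tested. Leaving X and Y out kept the differences between the classes in H3K27ac, DHS and ATOH1, at -42.4, -22.6 and -3.80 points.

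**Figure D5:**
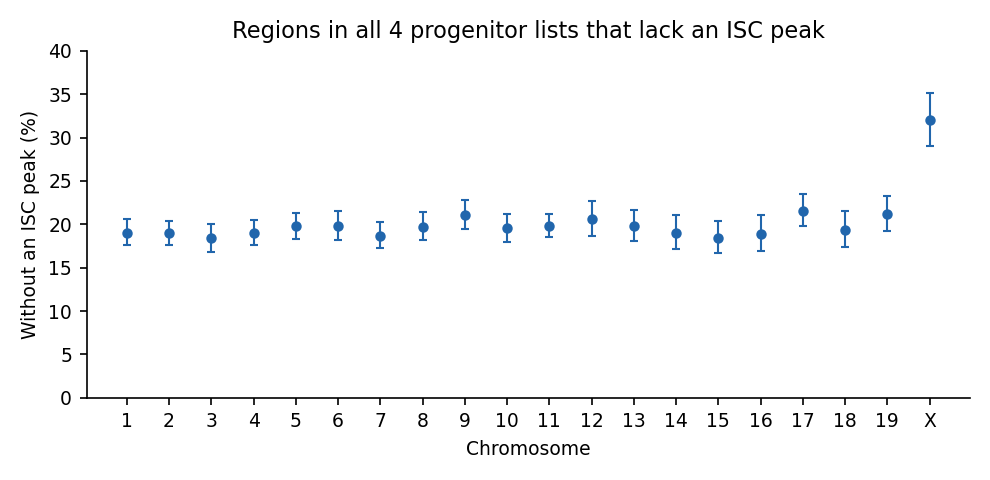
Points give, for each chromosome on the horizontal axis, the percentage of regions found in all 4 progenitor lists that lack an ISC peak, with Wilson 95% intervals. Autosomes lie between 18.4 and 21.6%, and X at 32.0%.

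As a whole list, ISC stood further from the progenitors than these from each other. The Jaccard index, which divides the bases shared by a pair of lists by the bases in at least 1 of them, was 0.418 to 0.478 between ISC and a progenitor list and 0.654 to 0.752 between 2 progenitor lists. At equal length the ranges were 0.435 to 0.470 and 0.687 to 0.766. In both settings the ISC list covers fewer bases than each progenitor list, which by itself limits how high its index can be. At equal covered length the ranges were 0.444 to 0.488 and 0.668 to 0.755. With full lists, the mean index of ISC with the 4 progenitors, minus the mean among these, was -0.248. The same statistic for each progenitor library against the other 4 libraries lay between 0.0393 and 0.0727. The exact two-sided permutation test over the 5 choices of 1 library against 4 gave p = 0.2, the smallest possible, so this design cannot reach 0.05. With 1 ISC library, the spread between stem cell preparations is unknown.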

How the data were processed

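H3K4me2 was measured by ChIP-seq in 1 ISC and 4 progenitor libraries. The deposited peak files hold 5 columns without a header, the last of which is the authors' score. The sources used here do not name its kind. The tools listed are CASAVA 1.7, Bowtie 0.12.7 and MACS2, with build mm9, per the submitters' processing notes. There is 1 file per library. Depth is unknown, and 3 input DNA samples were not analysed here.

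Overlaps of at least 1 bp, merged unions and shares were computed in Python (3.11.15) using SciPy 1.17.1, NumPy 2.4.6 and, for figures, matplotlib 3.10.9. Equal lists held 63293 peaks by score, with ties in file order; in ISC 1111 peaks share the score at that limit. Intervals for shares are Wilson, for differences Newcombe, and a difference passed when its 95% interval left out 0. Both kinds of interval treat regions as independent and cover counting error only. A pass thus does not speak to the spread between libraries. On simulated lists, 300 of 300 ISC-only and 900 of 900 progenitor-only regions were found. Those lists were slightly shifted copies of the merged ISC list with known regions taken out. This checks the code only, since the real lists also differ in peak width and number. The members, classes and alternatives were chosen with earlier results of these data known. Named regions were the 10 of either class highest by score (for progenitor regions, by the lowest score percentile of the 4 lists), the first 3 of each lineage, of which 1 each is printed, and the widest. Alternatives were a 50% overlap, the upper 50% of each list, equal length, equal covered length, merging within 1 kb, autosomes, regions beyond 1 kb, either kind of list, and leaving out each progenitor library. Comparing the upper 50% with the other lists in full was added after the data were seen, as were the comparisons by width, by private set and by chromosome, and the lineage values within a kind of list.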

Additional observations from a re-analysis of the deposited data

How the results depend on the processing

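The counts of each class depended on how lists were cut, and the differences in marks did not turn round in any alternative. ISC-only peaks numbered 1609, and 2708 with a 50% overlap, 670 with the upper 50% of each list, 975 with peaks merged within 1 kb, 502 beyond 1 kb, 6669 against lists with another shortest peak, 67 for the upper 50% of ISC against the other lists in full, and 1668 to 2809 without each progenitor library in turn. Progenitor-only regions numbered 8436, and 4992 with the upper 50%, 5365 after merging, 24597 with lists of the ISC kind, 1037 for the upper 50% against ISC in full, and 9326 to 11952 without each library. At equal length the 2228 ISC-only peaks became 1025 beyond 1 kb, 5442 against lists of the other kind, 28192 at equal covered length, and 2403 to 3217 without each library. The 7405 progenitor-only regions became 2747 after merging, where ISC-only peaks numbered 2401, then 14740 and 12967 for lists of either kind, 16 at equal covered length, and 8474 to 9431 without each library. The ATOH1 difference lost its call for the upper 50% against the other lists in full, at -4.39 points (-7.89 to 3.64), and at equal covered length, at -6.87 points (-30.4 to 2.14). Of 94 values recomputed under alternatives, 75 kept their call, stayed within 1.5 times the count or, for the similarity statistic, kept their sign. The mark differences at equal covered length are not among the 94. The similarity statistic stayed negative in all 9 of its alternatives. No paired analysis was possible because the groups share fewer than 2 replicate numbers and ISC has 1 library. Unknown depth, the single ISC library and the low ISC scores limit every count, and the cause of the changes was not tested.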

Other observations

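With full lists, most progenitor-only regions and a minority of ISC-only peaks had a peak in mature villus cells. H3K4me2 of GOB lay at 226 ISC-only peaks (14.0%) and 6349 progenitor-only regions (75.3%). H3K4me2 of ENT lay at 221 ISC-only peaks (13.7%) and 7355 progenitor-only regions (87.2%). Either mature list marked 20.8% [18.8 to 22.8] of ISC-only peaks and 90.5% [89.9 to 91.1] of progenitor-only regions, a difference of -69.8 points (-71.8 to -67.6). At equal covered length, a mature list marked 21153 of 28192 ISC-only peaks (75.0%) and all 16 progenitor-only regions, so the share for ISC-only peaks depends on that choice. The same share was 68.5% for regions private to Rbpj-deleted Sec-Pro, 31.7% for DBZ Sec-Pro, 45.8% for Ent-Pro replicate 1 and 55.4% for Ent-Pro replicate 2. ISC peaks in all 4 progenitor lists were marked in a mature list at 95.9%.

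Some stretches without any ISC peak held several progenitor-only regions. Most such gaps held 1 (5103 gaps) or 2 (1058 gaps). The fullest, chosen after its values were seen, was a gap of 250 kb on chromosome 13 with 11 progenitor-only regions at chr13:101016465-101222618. Of these, 7 carried H3K27ac of Sec-Pro and 6 of Ent-Pro, 0 carried a DHS or ATOH1, 8 carried H3K4me2 in GOB and 11 in ENT. The next held 7 regions at chrX:160514511-160671920, all with H3K27ac in both progenitors.

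Of the 6 ISC peaks on chromosome Y, 2 overlapped a GOB peak and 4 an ENT peak, and none a progenitor peak.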
